A study of Homo sapiens with 32 samples.

Results

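The genes described here are YY1, its paralogues YY2 and ZFP42, and YY1AP1, which encodes a YY1-associated protein. They were taken by name, 4 of 19970 protein-coding genes of chromosomes 1 to 22 and X, and every peak summit over their gene bodies or within 2000 bp of an annotated 5′ end was collected. The study mapped ZNF143, SP1, NRF1 and YY1 by ChIP-seq, in which an antibody recovers the DNA bound by a protein, in 1 clone of HEK293T, a human embryonic kidney cell line, whose ZNF143 carries an inducible degron tag. The 32 samples fell into 10 groups, for cells without treatment and for cells exposed for 30 minutes to dTAGV-1 at 50 nM, a compound that triggers loss of the tagged protein. There were 4 samples of each treatment for SP1, NRF1 and YY1, and 2 of each for ZNF143 (recovered through an HA epitope) and for a mock precipitation. The deposited lists hold 1 set of summits per antibody and no value per sample or treatment, so no replicate error, no test between groups and no effect of dTAGV-1 can be given for these genes.

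Each summit is a single position with a significance score on the −log10 scale (of p or of q, which is not stated), and scores are compared only within a list. The lists held 16600 (ZNF143), 126275 (SP1), 39194 (NRF1) and 106658 (YY1) summits, with median scores of 13.3, 14.05, 6.16 and 15.02. A rank of 1 is the highest score of a list, and the rank percent is the rank divided by the length of the list. Read depth is unknown. Neighbouring summits of a single peak are not independent.

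YY1 is a zinc finger protein that binds short elements with ATGG at their core near the starts of many housekeeping genes, and can activate or repress them. It recruits chromatin regulators such as histone deacetylases, the INO80 remodelling complex and Polycomb proteins. YY2 is an intronless retroposed copy of YY1 within an intron of MBTPS2, and ZFP42, also called REX1, is a related gene best known as a marker of pluripotent stem cells. Binding of YY1 to its own first intron is a known form of feedback on the gene.

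Both introns that carried a strong YY1 summit are shown, because the YY1 element can be read in them. They are given 5′ to 3′ on the strand of the gene from the hg38 reference. Capitals mark the YY1 consensus AANATGGCG (N is any base, searched on both strands), in the first sequence also with 1 mismatch and in the second without mismatch. The first is the start of the YY1 first intron (chr14:100239924-100240121, plus strand), and the second is centred on the summit in the YY1AP1 first intron (chr1:155688296-155688396, minus strand).
YY1: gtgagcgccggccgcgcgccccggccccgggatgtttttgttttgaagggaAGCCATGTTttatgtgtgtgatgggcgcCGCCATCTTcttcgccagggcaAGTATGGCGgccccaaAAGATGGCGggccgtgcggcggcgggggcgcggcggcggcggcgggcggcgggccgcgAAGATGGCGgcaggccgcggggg
YY1AP1: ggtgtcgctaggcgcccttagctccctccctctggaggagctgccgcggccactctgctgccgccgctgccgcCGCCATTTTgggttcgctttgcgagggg

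YY1 (ENSG00000100811.15, chromosome 14, 100238298 to 100282788, plus strand) had its highest YY1-list summit in its own first intron. The summit lay at position 100239961, on base 38 of the intron, 1663 bp downstream of the 5′ end of the gene record and 817 bp downstream of that of the Ensembl canonical transcript. Its score of 2699 ranked 626 of 106658, within the top 0.587% of the YY1 list. No exon of the 9 annotated YY1 transcripts covers it. The highest first-intron summit lay within the first 100 bases of the intron in 1556 of the 8053 genes with one (19.3%, Wilson 95% interval 18.5 to 20.2). A YY1-list summit in the first intron was found in 42.7% of the 18857 protein-coding genes that have one (8053 genes, Wilson 95% interval 42.0 to 43.4, counting error among genes only). Among those 8053 genes, ranked by their highest first-intron score, YY1 stood at 46, within the top 0.571%, and the median gene had a score of 38.04.

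**Figure D1:**
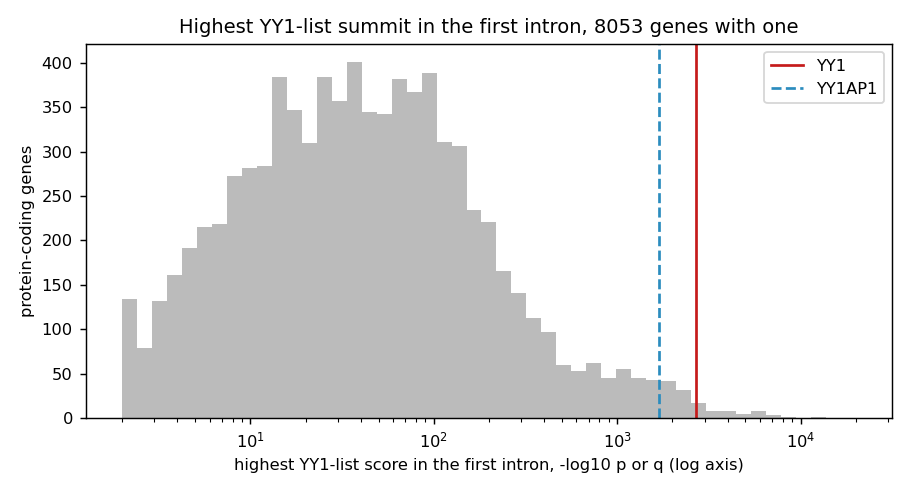
Number of protein-coding genes (vertical axis) by the highest YY1-list score in their first intron (horizontal log axis, −log10 p or q), for the 8053 genes with a summit there. The lines mark YY1 (2699) and YY1AP1 (1688), both in the right tail, far above the median of 38.04.

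The first intron of YY1, 22380 bp long, held 12 YY1-list summits in 2 peaks, 8 in the first and 4 in the second. As many or more were found in 1.55% of first introns, but the intron is long (the median first intron has 3639 bp), and 13% of first introns had more YY1-list summits per kb than its 0.536. The 11 other summits scored between 2.45 and 163, with a median of 7.14. The highest of them (163, rank percent 8.75) lay 2202 bp from the 5′ end, just outside the 2000 bp window. Others lay at 8717 bp (65.4) and 5758 bp (40.3). Thus 1 summit stood far above its neighbours in the same intron. The intron also held 11 SP1-list summits, with scores from 3.23 to 103, and 2 NRF1-list summits, and no ZNF143-list summit. An SP1-list summit lay within 100 bp of 5 of the 12 YY1-list summits, in the closest case 11 bp away, at 8728 bp from the 5′ end. The same share over all YY1-list summits was not worked out, so this count is no result about the intron.

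**Figure D2:**
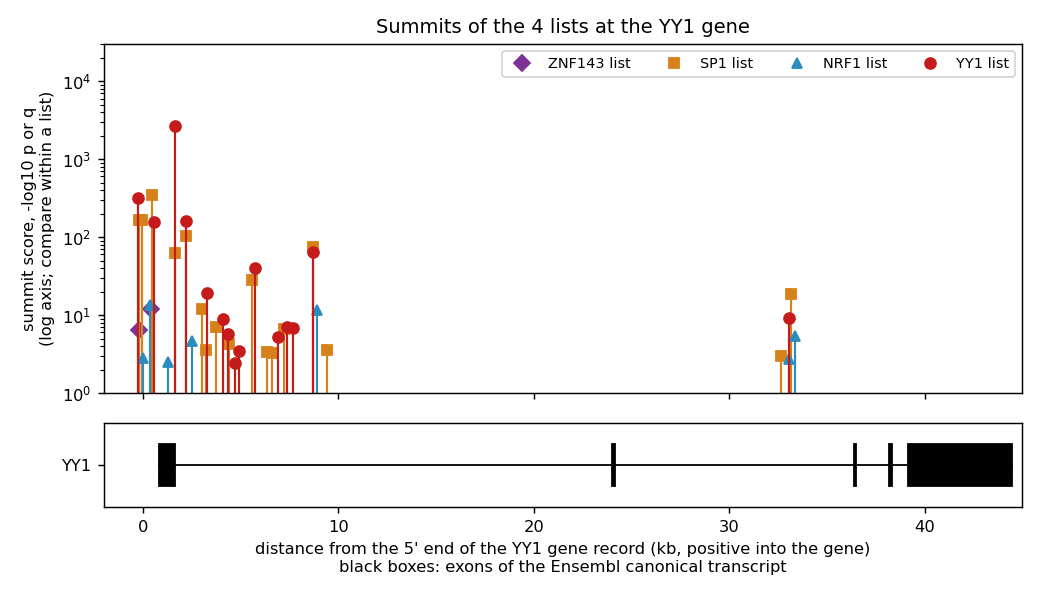
Score of every summit over YY1 (vertical log axis, −log10 p or q, comparable only within a list) against the distance from the 5′ end of the gene record in kb, with the exons of the canonical transcript as black boxes below. The YY1-list summit of 2699 stands at the start of the first intron, and the other summits lie around the 5′ end, in the first 10 kb of the gene, or near 33 kb in the second intron.

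The strongest intronic summit of YY1 lies beside a run of YY1 elements. Within 150 bp of it were 3 exact copies of the consensus, at intron bases 80 to 88, 118 to 126 and 176 to 184, and 2 copies with 1 mismatch, at bases 52 to 60 and 102 to 110. The 5 copies spanned 133 bp, all on the 3′ side of the summit, with the first 2 on the opposite strand to the gene and the other 3 on the same strand. Of all YY1-list summits, 2.52% had an exact copy within 50 bp, and 1 of the 12 in this intron did, the strongest. The whole first intron held 4 exact copies, or 0.179 per kb, against 0.0261 per kb in all protein-coding first introns, and 3 of the 4 are the copies just described. For the shorter core ATGGCG the values were closer, 0.402 against 0.155 per kb, and for copies with up to 1 mismatch closer still, 1.162 against 0.709 per kb. The first intron of ZFP42, which had no summit, held no exact copy. It was denser than that of YY1 in the core (0.918 per kb) and in copies with up to 1 mismatch (1.224 per kb). The 4th exact copy in the YY1 intron, at bases 4556 to 4564, had no YY1-list summit nearer than 427 bp. The distance of 150 bp and the minimum of 3 copies used next were both chosen after these copies were seen, so the YY1 intron had to meet them.

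As a description, a stretch of 150 bp with at least 3 exact copies occurred in 3 of 18857 first introns (0.0159%), those of YY1, PFKFB3 and ASMTL. The introns of PFKFB3 and ASMTL had no YY1-list summit. Among all 106578 YY1-list summits on chromosomes 1 to 22 and X, 12 (0.0113%) had at least 3 exact copies within 150 bp. The YY1 summit had 3, the minimum, and the largest number was 9, at a summit with a score of 336. These 12 differed widely in strength, from a score of 8.08 (rank percent 67.1) to 23329 (rank percent 0.00750). In 6 of them the score was 42.3 or less, with a rank percent of 26.1 or more, and the other 6 scored 336 or more. YY1, CCDC174 (offset −148 bp) and PTBP1 (offset −42 bp), the last 2 picked for naming after their values were seen, had the summit within 2000 bp of the 5′ end, and the other 9 lay farther from any protein-coding 5′ end.

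**Figure D3:**
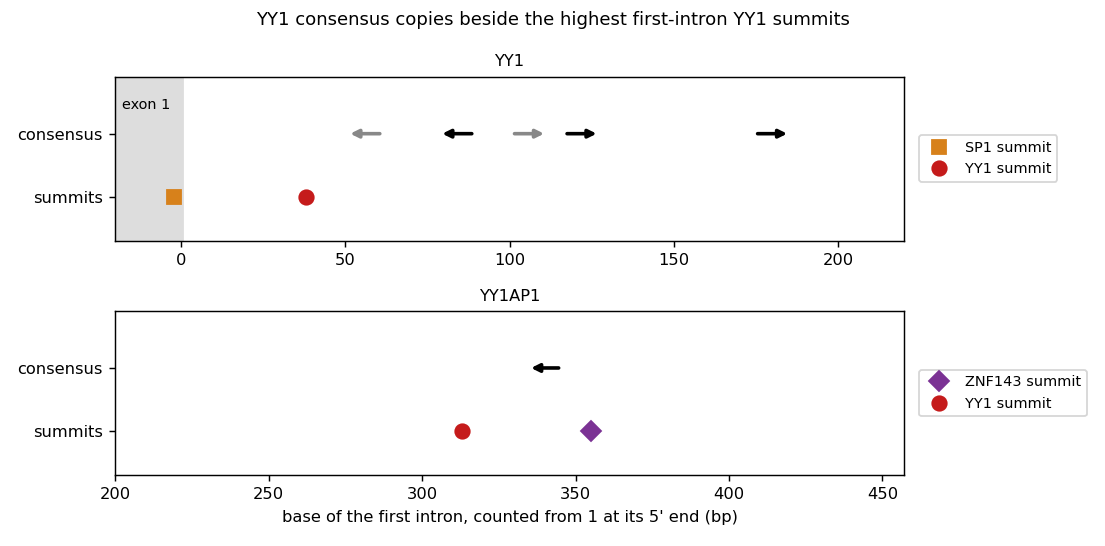
Positions of YY1 consensus copies (arrows pointing along the element, black for exact copies and grey for 1 mismatch) and of summits, by base of the first intron counted from 1 at its 5′ end; bases at and below 0 are exon 1. In YY1 the summit at base 38 precedes 5 copies, and in YY1AP1 the summit at base 313 lies beside 1 exact copy at bases 336 to 344.

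Around the 5′ end of YY1 all 4 lists had summits, with the YY1 list again the highest in rank. SP1, a zinc finger activator that binds GC boxes, had its best summit 444 bp downstream of the 5′ end of the gene record, with a score of 346 (rank percent 6.94). NRF1, a regulator of nuclear genes for mitochondria, reached 13.5 at 357 bp (rank percent 30.4). ZNF143, the degron-tagged activator, reached 12.2 at 413 bp (rank percent 51.9), below the median score of its list, and so YY1 no longer counted as a gene with all 4 factors in the top 50% of each list. Outside the intron, YY1-list summits scored 321 at −226 bp and 155 at 555 bp. The first of these lay 12 bp from a ZNF143-list summit (6.42, rank percent 70.55, at −214 bp) and 17 bp from an SP1-list summit (166, at −209 bp). No exact copy of the YY1, SP1 (GGGCGG) or ZNF143 consensus lay within 50 bp of these 3 summits. That is usual, since 2.52% (YY1), 10% (SP1) and 7.46% (ZNF143) of all summits of a list had their own consensus that near. Summits of separate lists do not show that the factors bind together. The canonical transcript starts 846 bp inside the gene record, so the best SP1, NRF1 and ZNF143 summits have offsets of −402, −489 and −433 bp from it and lie in an exon of 1 of the 9 transcripts. A long noncoding RNA gene, ENSG00000258982, starts 257 bp inside YY1 on the opposite strand, and the lists cannot assign these summits to either gene. The other genes whose records overlap YY1, MIR6764 and the noncoding ENSG00000258904 and ENSG00000259052, had no summit of any list within 2000 bp of their 5′ ends.

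A further group lay in the second intron of YY1, with a YY1-list summit of 9.27 at 33060 bp from the 5′ end, NRF1-list summits of 2.73 and 5.41, and SP1-list summits of 3.01 and 18.4. In all, YY1 carried 41 summits, 17 of the SP1 list, 15 of the YY1 list, 7 of the NRF1 list and 2 of the ZNF143 list. There was no summit over exons 2 to 5, and the NRF1-list summit of 2.53 and the SP1-list summit of 63.0 in exon 1 were the ones over coding sequence. That SP1-list summit, 1623 bp from the 5′ end, was 40 bp from the strong YY1-list summit of the intron.

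YY1AP1 (ENSG00000163374.20, chromosome 1, 155659443 to 155689000, minus strand) also carried a strong YY1-list summit in its first intron, which is 457 bp long. The summit, at position 155688346, scored 1688 (rank 1128, rank percent 1.06), the 131st highest among the 8053 genes (1.63%). It lay on base 313 of the intron, 654 bp downstream of the 5′ end, with an exact consensus copy centred 27 bp from it on the strand opposite to the gene. Exons of 3 of the 25 annotated transcripts cover the position. A ZNF143-list summit of 9.50 lay 42 bp away.

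The second site of YY1AP1 held summits of all 4 lists, which fell within 32 bp of each other just inside the gene record. The NRF1-list summit at 72 bp from the 5′ end scored 8129 (rank 651, rank percent 1.66), and the SP1-list summit at 71 bp scored 958 (rank percent 2.09). The ZNF143-list summit at 103 bp scored 267 (rank percent 17.1), and the YY1-list summit at 100 bp scored 275 (rank percent 5.35). At this gene the strongest YY1-list summit was therefore apart from the strongest summits of the 3 other factors, as it was at YY1. How many of all genes share this was not worked out, so it is no result about these genes. No exact copy of the YY1 consensus, of GCGCATGCG (NRF1), of GGGCGG (SP1) or of the ZNF143 consensus lay within 50 bp of these 4 summits. Over each whole list, 2.52% (YY1), 1.93% (NRF1), 10% (SP1) and 7.46% (ZNF143) of summits had their own exact consensus that near. Its absence is therefore usual and is no result about this site. The remaining 6 summits of YY1AP1 scored between 3.52 and 60.6.

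DAP3, a mitochondrial ribosomal protein gene on the opposite strand, has its canonical 5′ end at an offset of −317 bp from that of YY1AP1. The site with summits of all 4 lists lies between the canonical starts of both genes. The gene record of DAP3 begins inside YY1AP1, 1040 bp from its 5′ end, and contains the intronic YY1 site as well. The lists do not show which of the genes a summit serves.

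**Figure D4:**
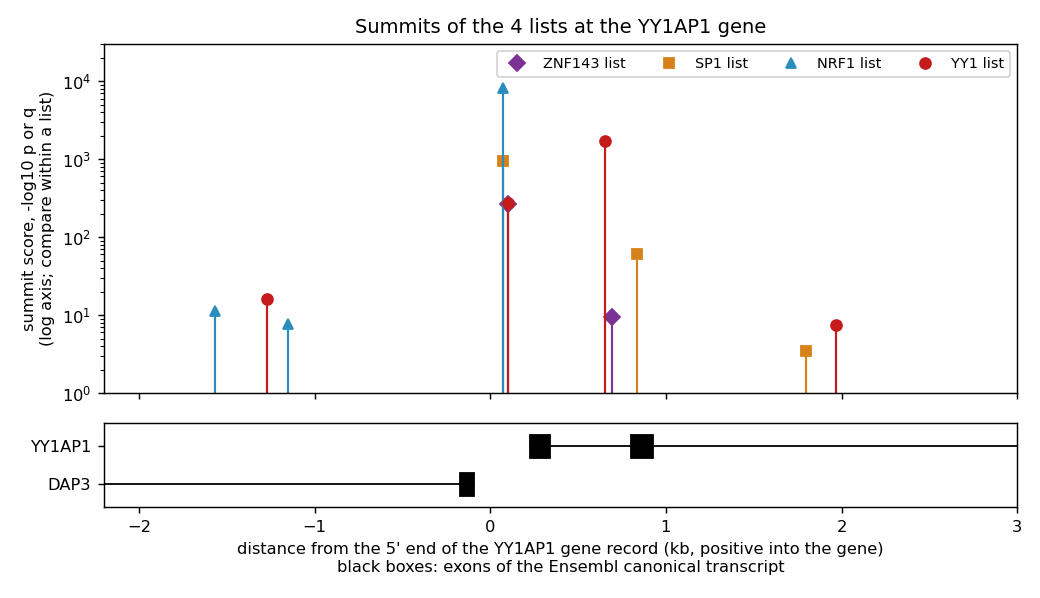
Score of every summit near the start of YY1AP1 (vertical log axis, −log10 p or q, comparable only within a list) against the distance from its 5′ end in kb, positive into the gene, with canonical exons of YY1AP1 and of DAP3 below. The 4 lists meet near 0.1 kb, and the YY1-list summit of 1688 stands apart at 654 bp between the first and second exons.

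YY2 (ENSG00000230797.3, chromosome X, 21855987 to 21858740) and ZFP42 (ENSG00000179059.10, chromosome 4, 187995771 to 188005046) had no summit of any list over the gene or within 2000 bp of a 5′ end. Neither did 19.3% of all protein-coding genes, and of the 5115 genes of up to 10000 bp, which both are, 43.0% (Wilson 95% interval 41.7 to 44.4) had none. These shares used only the 5′ end of each gene record, not those of all its transcripts. The peak numbers on either side of YY2 and of ZFP42 followed each other without a gap in all 4 lists, so the numbering shows no peak removed there. Elsewhere the YY1 and NRF1 lists lack some numbers. Beside YY2 they reached 74031 and 25543, while these lists hold 64734 and 24814 peaks. The reason is not stated, and ranks and shares rest on the lists as deposited. At these settings a weaker signal is not recorded, and its size cannot be bounded without reads.

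The summits nearest to YY2 belonged to the promoter of its host gene MBTPS2, which encodes a membrane protease that cleaves sterol-regulated transcription factors. The YY1-list summit there lay 16376 bp upstream of the 5′ end of YY2 and 6 bp upstream of that of MBTPS2, with a score of 436 (rank percent 3.48). The SP1-list summit scored 320 at 38 bp upstream of MBTPS2 (rank percent 7.47). The nearest NRF1-list and ZNF143-list summits were 482 and 272 kb from the 5′ end of YY2. For ZFP42 the nearest summits were 19.9 kb (SP1), 114 kb (YY1), 169 kb (ZNF143) and 1056 kb (NRF1) from its 5′ end.

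The letters of the YY1 element occur in ZFP42 as well. Over the gene body and 2000 bp upstream, ZFP42 held 2 exact copies of the YY1 consensus and YY2 held 0, against 4 in YY1 and 2 in YY1AP1. The shorter core ATGGCG, which lies within the consensus, occurred 7 times in ZFP42, 3 times in YY2, 11 times in YY1 and 15 times in YY1AP1. The stretches differ in length, with 11276 bp for ZFP42, 4754 bp for YY2, 46491 bp for YY1 and 31558 bp for YY1AP1. These counts, and those that follow, are therefore not densities, and a higher count does not mean a denser stretch. NRF1's GCGCATGCG was present once in YY2 and not in the others. The ZNF143 consensus had 7 copies in the YY1 stretch and none in the others. The RefSeq promoter windows (300 bases around a start, most of them upstream, GRCh38.p14) cover 3 of the 4 genes, YY1, ZFP42 and YY1AP1, and hold neither the YY1 consensus nor its core, which 3.19% and 10.7% of the 35116 windows contain. A GGGCGG box occurred 8 times in the YY1 window, 3 times in that of ZFP42 and once in each of the 3 windows of YY1AP1, and 45.0% of all windows have at least 1.

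The coding sequences show how the genes are related. By local alignment of the coding sequence in the reference, 955 bp of YY1 (bases 231 to 1240 of 1242) aligned with YY2 at 76.5% identity, leaving gaps out. For ZFP42, 532 bp aligned with YY1 (bases 704 to 1238) at 77.4%, a stretch that includes the zinc fingers encoded at the 3′ end. YY1AP1 gave 34 aligned bp with YY1 and is a relative of GON4L, not of the zinc finger family.

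Counted over the 4 genes, YY1 and YY1AP1 had a summit of every list within 2000 bp of the 5′ end, and YY2 and ZFP42 of none. Over all 19970 protein-coding genes the share was 37.4% for ZNF143, 66.5% for SP1, 55.8% for NRF1, 65.3% for YY1, and 35.3% for all 4 together. A count of 2 of 4 genes is near these shares and is no result about these genes. The presence of a YY1-list summit in the first intron, in 2 of the 3 genes that have introns, is likewise close to the 42.7% of all genes at this number. The high rank of both summits is a description and was not tested. The consensus lay within 50 bp of the highest first-intron summit in both YY1 and YY1AP1, against 3.39% of the 8053 genes and 38.2% (50 of 131, Wilson 95% interval 30.3 to 46.7) of those ranked at least as high as YY1AP1. Within 25 bp of the summit neither gene had a copy, against 1.68% and 16.0% of the same sets of genes. The 5 genes with the highest first-intron scores were AKT1S1 (11422), ENSG00000267360 (8397), HMGXB4 (7702), MPDU1 (7680) and MPC2 (6622), and the first 2 of them had an exact copy within 50 bp of the summit.

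Genes with a promoter pattern most like that of YY1 were ACBD3, ZNF92, CIAPIN1, COQ9 and ACADSB. Likeness was the Euclidean distance over 4 numbers, the percentile within each list of the highest summit within 2000 bp of the 5′ end. YY1 had percentiles of 48.1 (ZNF143), 93.1 (SP1), 69.6 (NRF1) and 99.4 (YY1), and ACBD3, at a distance of 1.84 percentile points, had 46.6, 93.0, 69.3 and 98.3. CIAPIN1 and COQ9 had the same 4 percentiles. For YY1AP1, with 82.9, 97.9, 98.3 and 98.9, DAP3 was identical, both genes having the same highest summit of each list in reach. It was followed by DYRK1B (1.46), ANKRD24 and SIRT6 (2.69 each) and ARMT1 (2.93). YY2 and ZFP42 shared their empty pattern with other genes, 6225 genes in all having no summit in that window.

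Finally, a list of 25 genes for YY1 partners and relatives was examined at the same window. A YY1-list summit lay near the 5′ end of 24 of them, against 65.3% of all genes, with a median highest score of 477 against 146 over the 13041 genes with one. The highest scores were at HCFC1, which encodes a transcriptional co-regulator (16424, rank percent 0.0225), and ACTR8, an INO80 subunit (7170, rank percent 0.137). They were followed by the Polycomb-related L3MBTL2 (2225, rank percent 0.732) and the acetyltransferase gene EP300 (2201, rank percent 0.745). YY1 itself, at 2699, lay between ACTR8 and L3MBTL2, and YY1AP1 below EP300. GON4L, the relative of YY1AP1, scored 77.6, below the median of 146 over the genes with a summit. It was not the only partner below that value.

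HDAC2, a histone deacetylase gene, was the only partner without a YY1-list summit in the window, and it had one when the 5′ ends of all its transcripts were used. SP1-list summits were present at 24 of the 25 partners (median 546 against 207 over all genes with one), NRF1-list summits at 22 (82.7 against 53.3) and ZNF143-list summits at 15 (40.1 against 23.6). All 4 lists had a summit at 14 partners, against 35.3% of all genes. In the first intron, 15 of the 25 had a YY1-list summit, against 42.7% of all genes. These counts were not tested, and the genes they stand beside were not matched to the partners in expression or any other trait.

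**Figure D5:**
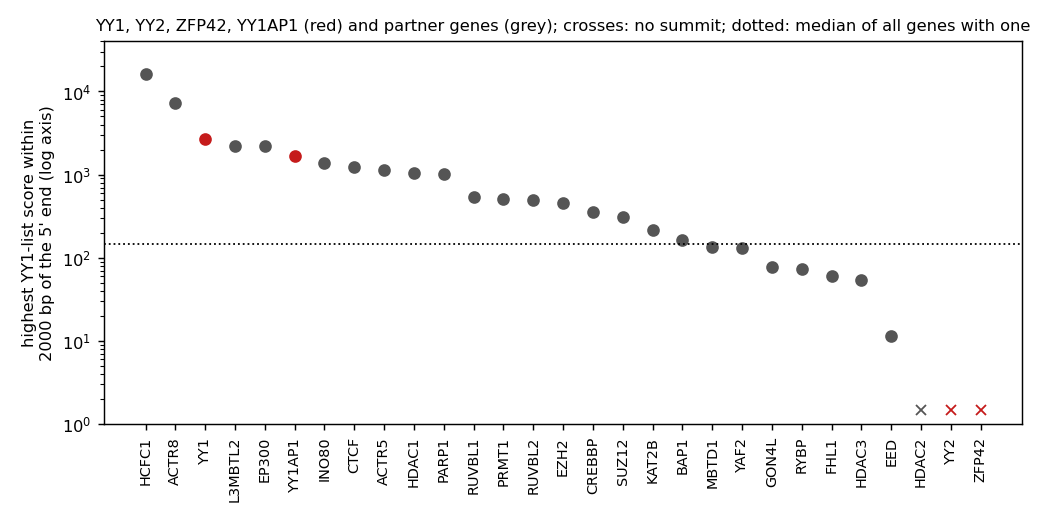
Highest YY1-list score within 2000 bp of the 5′ end (vertical log axis, −log10 p or q) for YY1, YY2, ZFP42 and YY1AP1 in red and 25 partner genes in grey, in order of score. Crosses at the bottom mark genes with no summit (HDAC2, YY2 and ZFP42), and the dotted line is the median of 146 over all genes with one.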

How the data were processed

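The 4 deposited summit lists were used as the authors made them, 1 per antibody. Column 5 of the deposited lists is a −log10 p-value or q-value from its layout and lowest value of 2.00, and which of the 2 is not given in the sources used here. cutadapt, Bowtie2, SAMtools 1.16.1, MACS3, bedtools and build hg38 are named in the submitters' processing notes, without roles. All summits lay within the hg38 reference. Labels of untreated and treated samples alike name the lists for SP1 and ZNF143, and for NRF1 and YY1 the samples behind the list are not stated.

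Summits were placed on GENCODE release 44 with Python 3.11.15 and pysam 0.24.0. The first intron was that of the Ensembl canonical transcript. Promoter sequences came from RefSeq. Range queries and consensus searches were tested on simulated data. No test was run, since no list has replicate values. Named genes were the 4 members, genes overlapping them or starting within 2000 bp, the 5 most like YY1 and YY1AP1, the 5 highest first-intron scores, and of the partners the 4 highest and any without a summit. Outside this rule, GON4L was named as a relative of YY1AP1, and PFKFB3, ASMTL, CCDC174 and PTBP1 for their runs of consensus copies. The members and lists were chosen with earlier results of these data known.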

Additional observations from a re-analysis of the deposited data

How the results depend on the processing

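Keeping only the highest summit of each peak left 2 YY1-list summits in the YY1 first intron and put the top one at a rank percent of 0.936. In the top 50% of the list by score there were 5 summits, with a rank percent of 1.17, since the list is shorter. Of all 12 YY1-list summits in that intron, 1 had the consensus within 50 bp, as reported. The number was 2 with 1 mismatch, 2 with the shorter core, and 0 within 25 bp, where YY1AP1 had none either. Over the whole YY1 list, 16% of summits had a copy with up to 1 mismatch that near. The count of 2 of 12 is close to this share and is no result about the intron. The consensus had 26 copies in the intron with 1 mismatch and 9 with the shorter core, against 4, and its excess per kb over all first introns shrank with both. Members with all 4 lists fell to 1, YY1AP1, in the top 50% of each list. Windows of 500, 1000 and 5000 bp, the 5′ ends and first introns of all transcripts, and a reach of 100 bp left each count they were applied to within 1.5 times its main value. No paired analysis was possible because the lists hold no value per sample, and leaving out a replicate could not be run for the same reason. Read depth is unknown, and a summit below the score cutoff is not listed.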
